A study of Daphnia magna with 56 samples.

Results

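The transcriptome of whole Daphnia magna after 8 days at 100 mGy/h was compared with that after 4 days at the same dose rate, the highest of the study. The 8 libraries were picked by their labelled dose rate and day, and are 8 of the 56 RNA-seq libraries, 4 taken on day 8 and 4 on day 4. The comparison itself was chosen with earlier results of these data known. All animals were female and wild type, and the labels call them juveniles 8 or 4 days old, so that the exposure, begun in neonates, matches the labelled age. Gamma radiation was given in beakers of culture medium at 0.4, 1, 4, 10, 40 or 100 mGy/h, with unirradiated animals at 0 mGy/h, which gave 14 groups of 4 libraries over both days. The 8 unirradiated libraries, 4 from day 8 and 4 from day 4, served as the reference for the passage of time. How many animals a library holds, and whether replicates came from separate beakers, is not given in the sources used here, so p-values measure the spread between these libraries.

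Daphnia magna is a freshwater crustacean of standard toxicity testing that reproduces mostly by cloning. Between birth and its first brood it grows through a run of moults, in which the old cuticle is digested and a new one laid down, and its ovaries begin to load eggs with yolk proteins. Ionizing radiation breaks DNA and forms reactive oxygen species, and reduced reproduction is a known outcome of long exposure in this species. The entries of the count tables are RefSeq model transcript records, each called a transcript here. Of the 9329 transcripts tested, 6348 (68.0%) could be paired with a gene symbol, every one a LOC number without a description, so transcripts are given by identifier and no function is assigned to any of them.

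Depth was even. The day 8 libraries at 100 mGy/h held 14091582 to 14802473 counts and 10449 to 10551 detected records, the day 4 libraries 13343830 to 13955640 counts and 10575 to 10701 records. The unirradiated libraries held 14053882 to 14605939 counts (day 8) and 13399048 to 14243541 counts (day 4). Replicates differed more on day 8: the median SD of log2 CPM (counts scaled to TMM-adjusted library sizes and a common depth) within the group was 0.180 on day 8 and 0.120 on day 4 at 100 mGy/h, and 71.3% of the tested transcripts had the larger SD on day 8. Each day has its own count table, so age, length of exposure and any difference between the runs of the tables cannot be told apart. Whole animals were sequenced, so fewer cells of a type and less RNA per cell cannot be told apart either.

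Day 8 differed from day 4 at 100 mGy/h in most of the transcripts tested. In edgeR's quasi-likelihood test with Benjamini-Hochberg adjustment, 5586 of 9329 transcripts were called (59.9%, adjusted p under 0.05), of which 2773 were higher (29.7%) and 2813 lower (30.2%) on day 8. Numbers were balanced but sizes were not. Changes of at least 2-fold comprised 1014 rises (10.9%) and 349 falls (3.74%), changes of at least 4-fold 510 rises and 75 falls, and changes of at least 16-fold 224 rises and 7 falls. The change was at least 256-fold in 36 rises. The median log2 fold change was 2.01 among the 1014 rises and -1.36 among the 349 falls, and -0.03 among all transcripts tested. The median stayed at 2.01 with the 3 rises that had no count in any day 4 library set to their bound (3 counts over the group). Of the 1014 rises, 884 had all 4 day 8 libraries above all 4 day 4 libraries, a position that 24.7% of all tested transcripts held. The opposite position was held by 306 of the 349 falls and by 25.7% of all tested transcripts.

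The rises took up a large part of the sequenced RNA. Transcripts that rose at least 2-fold supplied 26.7% to 37.0% of all counts in the day 8 libraries and 6.23% to 7.57% in the day 4 libraries, and those that fell at least 2-fold supplied 1.20% to 2.11% and 4.87% to 5.55%. Counts measure shares of a library, so the split between rises and falls depends on the scaling. With library totals in place of TMM factors, the median log2 fold change was -0.40, and 1395 transcripts were called higher and 5279 lower (20.9% higher, against 49.6% with TMM factors). Under that scaling 692 transcripts rose and 897 fell at least 2-fold.

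The sharpest rises were of transcripts close to absent on day 4. XM_032921647.1 (LOC116916398) stood at 257, 216, 204 and 82.2 CPM in the 4 day 8 libraries, against 0.067, 0, 0.0624 and 0 CPM in the 4 day 4 libraries. The day 4 values come from 2 counts in all, and the ratio of the summed, scaled counts was 5775 (95% counting interval 1599 to 47689). All 4 day 8 libraries held it at a high level, and the fitted log2 fold change was 12.16 ± 1.14 (SE, edgeR adjusted p = 1.28e-06). XM_032940370.1, with no symbol, showed the same pattern at 893, 1187, 593 and 353 CPM on day 8, against 0.134, 0.068, 0.25 and 0.193 CPM on day 4 (log2 fold change 12.10 ± 1.41, edgeR adjusted p = 8.01e-06). XM_032935982.1 had 279, 523, 218 and 223 CPM on day 8, against 0.268, 0.204, 0.25 and 0.193 CPM on day 4 (10.35 ± 1.22 on the log2 scale, edgeR adjusted p = 8.93e-06).

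In the other sharp rises the day 8 libraries differed widely among themselves. XM_032934914.1 (LOC116927872) had 43.4, 2.84, 57.6 and 1416 CPM on day 8, against 0.067, 0.136, 0 and 0 CPM on day 4, and its neighbour XM_032934915.1 (LOC116927873) had 20.2, 2.84, 24.0 and 809 CPM, against 0, 0.068, 0 and 0.0645 CPM. Replicate 4 was the highest and replicate 2 the lowest day 8 library for both. No day 8 library overlapped day 4, as the rule of choice required. Their fitted log2 fold changes of 12.68 ± 3.11 and 12.33 ± 3.07 (edgeR adjusted p = 0.00305 and 0.00335) became 9.22 and 8.56 without day 8 replicate 4 (edgeR adjusted p = 0.0112 and 0.0140). The summed day 4 counts were 3 and 2, and the ratios of sums were 7885 (95% counting interval 2698 to 38236) and 6660 (1844 to 54990). XM_032939787.1 (LOC116932067) reached 628, 1036, 80.4 and 456 CPM on day 8, against 0.803, 0.204, 0.312 and 0.0645 CPM on day 4. XM_032931009.1 (LOC116924492) reached 893, 1344, 90.9 and 808 CPM on day 8, against 0.67, 0.476, 0.687 and 0.516 CPM on day 4. For both, day 8 replicate 3 was the lowest of its group and still far above every day 4 library. The log2 fold changes were 10.61 ± 1.56 and 10.36 ± 1.51 (edgeR adjusted p = 5.98e-05 and 5.32e-05).

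XM_032934796.1 (LOC116927744) differed from the other sharp rises in its unirradiated libraries. At 100 mGy/h it had 443, 1.03, 344 and 620 CPM on day 8, against 0.067, 0.136, 0.0624 and 0 CPM on day 4 (log2 fold change 12.21 ± 1.59, edgeR adjusted p = 2.13e-05). Without irradiation it had 0.389, 0.083, 0.366 and 0.0759 CPM on day 8, against 0.13, 0.0644, 0 and 0.0645 CPM on day 4, and this change was not called (edgeR adjusted p = 0.608). The difference between the day changes was 10.49 ± 5.50 on the log2 scale and did not pass the test (edgeR adjusted p = 0.302). Summed counts were 4 on day 4 at 100 mGy/h, and 12 on day 8 and 4 on day 4 at 0 mGy/h, so this SE is rough. All irradiated day 8 libraries lay above all unirradiated ones, the lowest being replicate 2 at 1.03 CPM. Why the difference was not called was not tested. With the 56 libraries scaled together, its day 8 libraries ran from 0.075 to 0.387 CPM at 0 mGy/h, 0.0774 to 0.241 at 0.4, 0.085 to 0.166 at 1, 0.163 to 16 at 4, 0.151 to 33.5 at 10, 0.149 to 176 at 40 and 1.03 to 608 CPM at 100 mGy/h. Each group from 4 to 40 mGy/h thus held a library as low as those at 0 mGy/h, and the SD exceeded the mean there, with 4.19 ± 7.87, 11.6 ± 15.6 and 44.5 ± 87.7 CPM (SD, n = 4 each). The other 7 of the 8 largest rises were called at 0 mGy/h too, with log2 fold changes between 7.38 and 11.70. Some of these 7 were present on day 4 at other dose rates, with the 56 libraries scaled together. Day 4 means were 202 ± 117, 107 ± 45.3 and 44.7 ± 59.0 CPM at 0.4 mGy/h for XM_032931009.1, XM_032939787.1 and XM_032940370.1. XM_032921647.1 averaged 18.9 ± 37.8 CPM at 10 mGy/h (SD, n = 4 each). The remaining XM_032934914.1, XM_032934915.1 and XM_032935982.1 were at or below 0.84 CPM in every day 4 library.

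**Figure D1:**
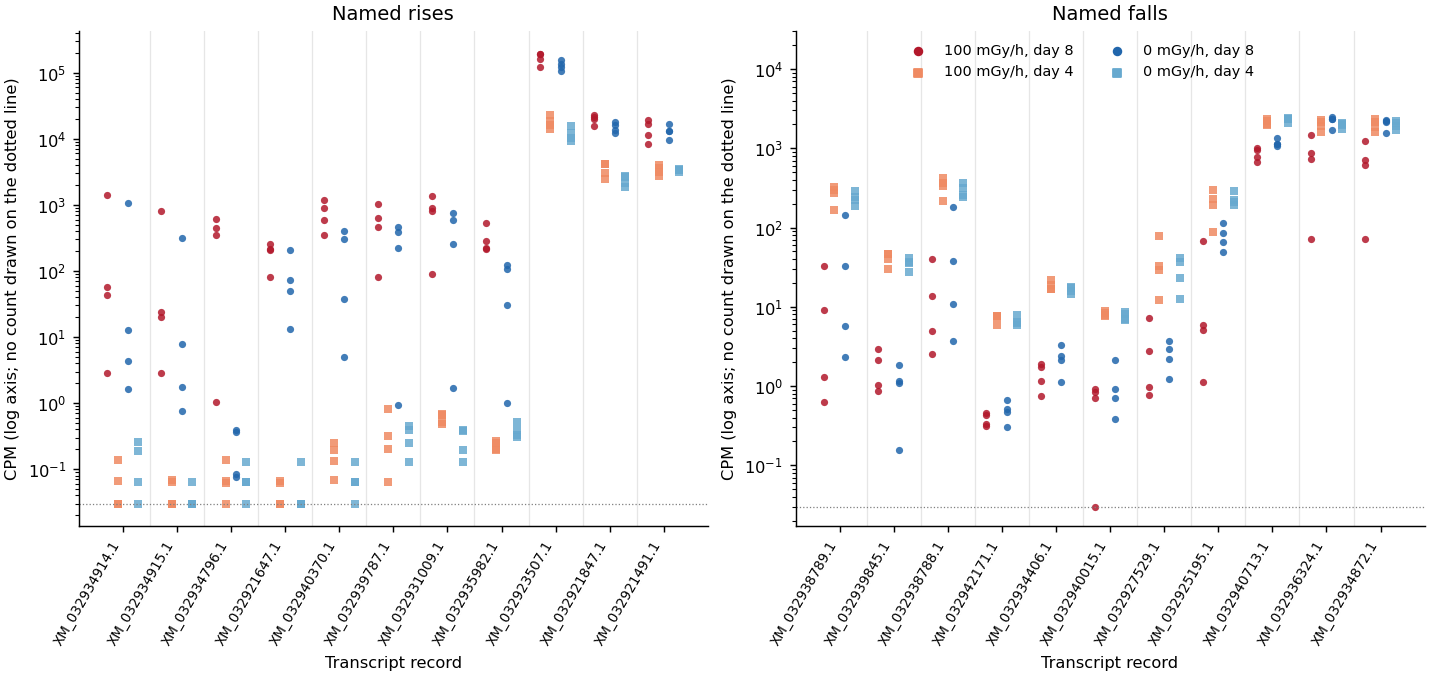
CPM of the 11 named rises (left) and the 11 named falls (right) in each library on a log axis, with 4 libraries a group drawn as points in the order 100 mGy/h day 8, 100 mGy/h day 4, 0 mGy/h day 8 and 0 mGy/h day 4, and a library without counts on the dotted line. For each of them the day 8 and day 4 libraries at 100 mGy/h do not overlap, as the rule of choice required (for example 82.2 to 257 CPM on day 8 and at most 0.067 CPM on day 4 for XM_032921647.1).

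A count without a model was also one-sided. Of all 23570 records, 14 had at least 10 counts in each day 8 library at 100 mGy/h and at most 3 counts summed over the 4 day 4 libraries, and 1 record had the reverse pattern. Of the 14, 5 met the same rule at 0 mGy/h, where 21 records in all were on at day 8 and off at day 4, and 2 the reverse. The others of the 14 also had more counts on day 8 than on day 4 at 0 mGy/h. Their summed counts there ran from 87 against 4 to 13924 against 8. None of the 14 was at exactly 0 counts in all 4 day 4 libraries. Without day 4 replicate 1 the count of 15 became 27, and without day 4 replicate 3 it became 23. Leaving out a library with the same limits only loosens the rule, so the count could not drop. The single record on at day 4, XM_032924943.1 (LOC116919074), had 0, 0, 0 and 0.0792 CPM on day 8, against 1.14, 1.70, 1.44 and 1.35 CPM on day 4. That is 1 count against 86, a 69.7-fold lower ratio (95% counting interval 12.5 to 2755). The unirradiated libraries had 0.156, 0.166, 0.293 and 0.152 CPM on day 8, against 0.65, 1.03, 1.12 and 0.903 CPM on day 4. The fall was larger at 100 mGy/h by 3.39 on the log2 scale (SE 0.72, edgeR adjusted p = 0.0303). Its symbol is shared with another record, so reads may be divided between them.

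The 3 most abundant rises of at least 2-fold had smaller SEs than the 8 largest rises. XM_032923507.1, the record with the most counts in every day 8 library at 100 mGy/h, had 188913, 193531, 123742 and 162585 CPM on day 8, against 18715, 22822, 14039 and 16418 CPM on day 4. It alone supplied 11.1% to 16% of all counts on day 8 and 1.61% to 2.48% on day 4, and its log2 fold change was 3.22 ± 0.22 (edgeR adjusted p = 1e-07). XM_032921847.1 (LOC116916592) had 19879, 22957, 15723 and 21491 CPM on day 8, against 4105, 4163, 2421 and 3084 CPM on day 4 (log2 fold change 2.54 ± 0.20, edgeR adjusted p = 3.22e-07). XM_032921491.1 (LOC116916271) had 19032, 16784, 8328 and 11521 CPM on day 8, against 4036, 3574, 3138 and 2772 CPM on day 4 (log2 fold change 2.04 ± 0.23, edgeR adjusted p = 6.12e-06). Replicate 3 was the lowest of the day 8 libraries for these 3 transcripts. None of their day changes passed the test of the difference from 0 mGy/h, the differences being -0.24 ± 0.29, -0.12 ± 0.27 and 0.06 ± 0.31 on the log2 scale. The 10 most abundant records of a library took 24.5% ± 1.41 of its counts on day 8 and 10.0% ± 0.402 on day 4 (SD, n = 4 each).

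The falls ended at low but mostly measurable levels. XM_032942171.1 (LOC116934708) had the smallest SE of the 8 largest falls, with 0.33, 0.43, 0.454 and 0.317 CPM on day 8, against 5.96, 7.69, 7.49 and 7.74 CPM on day 4 (log2 fold change -4.21 ± 0.19, edgeR adjusted p = 5.32e-09). XM_032939845.1 had 2.97, 0.86, 2.12 and 1.03 CPM on day 8, against 46.3, 46.3, 39.7 and 30.2 CPM on day 4 (log2 fold change -4.53 ± 0.41, edgeR adjusted p = 1.01e-06). XM_032934406.1 (LOC116927394) had 1.15, 1.72, 0.756 and 1.90 CPM on day 8, against 18.9, 22, 16.7 and 16.7 CPM on day 4 (log2 fold change -3.75 ± 0.28, edgeR adjusted p = 2.18e-07). In these 3 transcripts, as in every named fall, the rule of choice required each day 8 library to lie below each day 4 library. XM_032940015.1 (LOC116932213) had 0.907, 0, 0.832 and 0.713 CPM on day 8, against 7.97, 8.37, 7.74 and 8.90 CPM on day 4 (log2 fold change -3.71 ± 0.49, edgeR adjusted p = 2.55e-05). XM_032927529.1 (LOC116921261) had 7.17, 0.774, 0.983 and 2.77 CPM on day 8, against 77.2, 32.4, 29.3 and 12.2 CPM on day 4 (log2 fold change -3.69 ± 0.70, edgeR adjusted p = 0.000461), and its levels varied within both days.

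A pair of neighbouring genes fell together and unevenly. XM_032938789.1 (LOC116931234) had 9.07, 1.29, 32.8 and 0.634 CPM on day 8, against 165, 298, 276 and 329 CPM on day 4, and XM_032938788.1 (LOC116931233) had 13.6, 4.90, 40.3 and 2.54 CPM, against 216, 364, 337 and 425 CPM. In both, replicate 3 was the highest and replicate 4 the lowest day 8 library. Their log2 fold changes were -4.60 ± 1.24 and -4.45 ± 1.07 (edgeR adjusted p = 0.00562 and 0.00265), and neither passed the test at 0 mGy/h (edgeR adjusted p = 0.0911 and 0.0563), where the differences from 100 mGy/h were not called either. If the copies are alike in sequence their reads may have been divided between them, so the pair is uncertain. XM_032925195.1 had 67.4, 5.08, 5.82 and 1.11 CPM on day 8, against 297, 193, 228 and 88.4 CPM on day 4. Its log2 fold change of -3.34 ± 0.90 (edgeR adjusted p = 0.00531) was -5.65 without day 8 replicate 1.

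Of the 3 most abundant falls, only XM_032940713.1 (LOC116932824) was steady, with 945, 787, 998 and 663 CPM on day 8, against 2202, 1965, 2325 and 2021 CPM on day 4 (log2 fold change -1.33 ± 0.11, edgeR adjusted p = 6.78e-07). XM_032936324.1 (LOC116929166) had 741, 879, 1458 and 71.9 CPM on day 8, against 2303, 1612, 2158 and 1915 CPM on day 4. XM_032934872.1 (LOC116927831) had 613, 705, 1225 and 70.8 CPM on day 8, against 2371, 1618, 2157 and 1850 CPM on day 4. In both, day 8 replicate 4 was far below the other day 8 libraries, and the 4 libraries stood in the same order. At 0 mGy/h these 2 transcripts had day 8 means of 2216 ± 334 and 2038 ± 316 CPM, against day 4 means of 1939 ± 152 and 1987 ± 225 CPM (SD, n = 4 each). The calls at 100 mGy/h (edgeR adjusted p = 0.0416 and 0.015) were lost in a fit of the 8 irradiated libraries alone (edgeR adjusted p = 0.136 and 0.0743). With 1 of the 16 libraries left out, the call of XM_032936324.1 was kept without replicates 3 or 4 of day 8 at 100 mGy/h and without replicates 1 or 2 of day 8 at 0 mGy/h. It was lost without any of the other 12 (edgeR adjusted p = 0.0504 to 0.0810).

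Most of the changes of at least 2-fold were also called, in the same direction and at any size, in unirradiated animals. At 0 mGy/h 5039 transcripts were called between the days (54%), with 831 rises (8.91%) and 407 falls (4.36%) of at least 2-fold. Of the 1014 rises at 100 mGy/h, 892 were also called higher, at any size, at 0 mGy/h, where 27.7% of all tested transcripts were. There 710 of the 1014 were called and at least 2-fold higher (8.91% of all tested were), and 1 was called lower. Of the 349 falls at 100 mGy/h, 245 were also called lower, at any size, at 0 mGy/h, where 26.3% of all tested transcripts were. Fewer, 163 of the 349, were called and at least 2-fold lower there (4.36% of all tested were), and 1 was called higher. The median log2 fold change at 0 mGy/h was 1.67 over the 1014 rises and -0.99 over the 349 falls. At 100 mGy/h, the contrast by which they were chosen, it was 2.01 and -1.36. Across the 9329 transcripts, the day changes at 100 and 0 mGy/h, which share no library, had a Pearson correlation of 0.894 and a Spearman correlation of 0.819. These are descriptions over transcripts, which are not independent and share the 2 count tables.

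**Figure D2:**
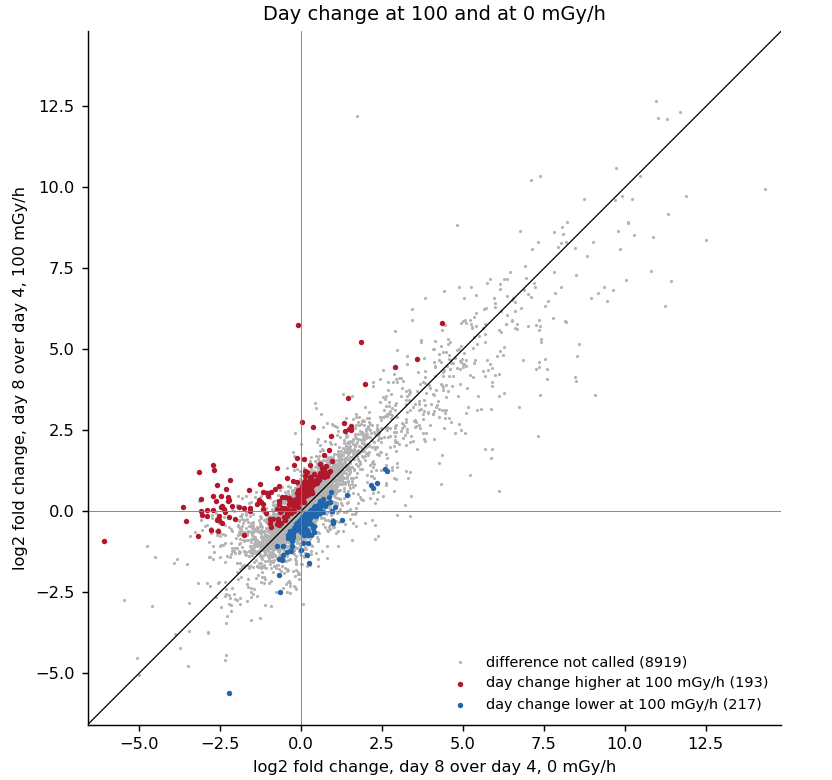
Log2 fold change of day 8 over day 4 at 100 mGy/h (vertical) against that at 0 mGy/h (horizontal), 1 point per transcript, with the line of equal change. The 193 red and 217 blue transcripts are those whose day changes differed in the edgeR test of the difference, and many of the red ones lie near 0 on the vertical axis and below 0 on the horizontal one.

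Lists of age-related transcripts were taken from other libraries and read at 100 and 0 mGy/h. In the 40 libraries at 0.4, 1, 4, 10 and 40 mGy/h, 904 transcripts rose and 486 fell at least 2-fold between day 4 and day 8. None of those libraries enters the comparisons at 100 and 0 mGy/h. The mean log2 CPM of the rising list was 4.66 ± 0.351 on day 8 and 1.89 ± 0.343 on day 4 at 100 mGy/h, and 4.35 ± 0.218 on day 8 and 1.61 ± 0.203 on day 4 at 0 mGy/h (SD, n = 4 each). The irradiated and unirradiated day 8 libraries overlapped on this list. The mean of the falling list was 3.00 ± 0.152 on day 8 and 4.09 ± 0.184 on day 4 at 100 mGy/h, and 2.47 ± 0.273 on day 8 and 4.17 ± 0.107 on day 4 at 0 mGy/h. On day 8 every irradiated library lay above every unirradiated one on this list, with 2.82 to 3.13 at 100 mGy/h and 2.12 to 2.79 at 0 mGy/h. The rising minus the falling mean was 1.66 ± 0.494 at 100 mGy/h and 1.87 ± 0.428 at 0 mGy/h on day 8, and the 2 ranges overlapped.

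**Figure D3:**
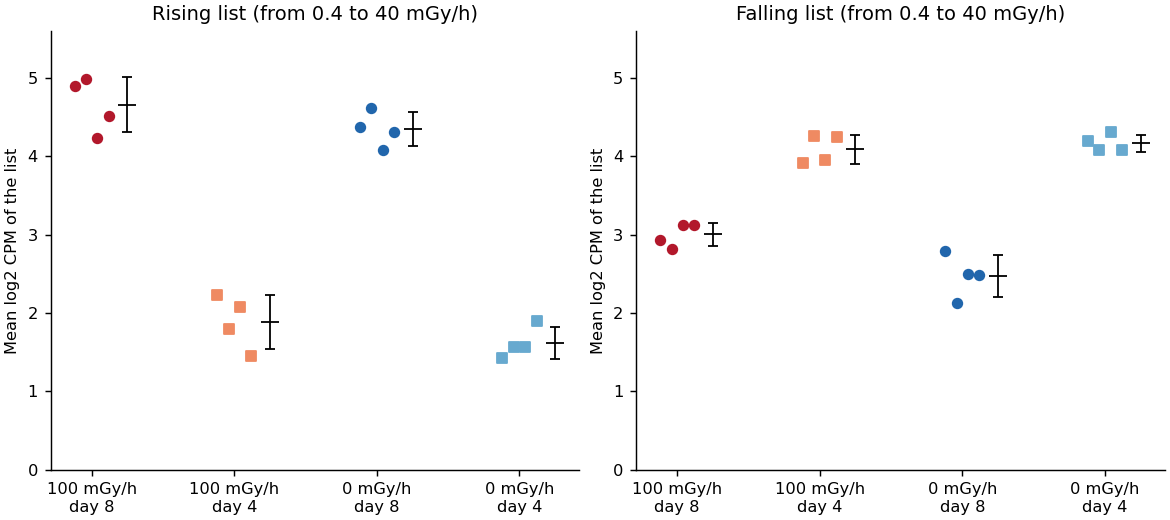
Mean log2 CPM per library of the 904 rising (left) and 486 falling (right) transcripts chosen from the 40 libraries at 0.4 to 40 mGy/h, with the mean and SD of the 4 libraries beside each group. On day 8 the falling list sits at 2.82 to 3.13 in the 100 mGy/h libraries and at 2.12 to 2.79 in the 0 mGy/h libraries, whereas the groups overlap on the rising list.

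The day changes differed between 100 and 0 mGy/h in a small part of the transcriptome. The edgeR test of the difference itself called 410 transcripts (4.39%), with the day change higher at 100 mGy/h in 193 (2.07%) and lower in 217 (2.33%). An unadjusted p under 0.05 was reached by 1955. Called differences of at least 2-fold numbered 82 higher and 18 lower among the 9329 transcripts tested. A called difference was held by 48 of the 1014 rises at 100 mGy/h (4.73%) and by 16 of the 349 falls (4.58%), shares near that of all transcripts tested. The count moved with single libraries. It was 787 without 100 mGy/h day 8 replicate 3, and 264 without replicate 4 of that group. Without 100 mGy/h day 4 replicates 1, 2, 3 and 4 in turn it was 266, 227, 184 and 227. Without 0 mGy/h day 8 replicates 1 and 4 it was 271 and 259, and without 0 mGy/h day 4 replicates 1, 3 and 4 it was 174, 150 and 203. The split was 203 higher and 161 lower with DESeq2's size factors, and 119 and 242 with library totals.

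The differences were mainly gaps on day 8. In 382 of the 410 transcripts (93.2%) the gap between 100 and 0 mGy/h was larger on day 8 than on day 4, as it was in 71.9% of all tested transcripts. The day 8 libraries of the 2 dose rates did not overlap in 366 of the 410 (89.3%, against 15.3% of all tested), and the day 4 libraries in 62 (15.1%, against 5.19% of all tested). These shares describe the called transcripts and were in part fixed by the test that chose them. The day change went the same way at both dose rates and was larger at 100 mGy/h in 159 (38.8%, against 48.4% of all tested), was smaller in 74 (18%, against 35% of all tested) and had opposite signs in 177 (43.2%, against 16.7% of all tested). At 0 mGy/h 407 of all tested transcripts fell at least 2-fold (4.36%) and 831 rose at least 2-fold (8.91%). Of these, 47 falls and 2 rises had a called difference and were not called between the days at 100 mGy/h. In the other direction, 13 of the 1014 rises and 5 of the 349 falls of at least 2-fold at 100 mGy/h had a called difference and were not called at 0 mGy/h. Of the 407 falls at 0 mGy/h, 53 had a called difference (13%), and in 52 of these the day change was higher at 100 mGy/h. Of the 831 rises at 0 mGy/h, 19 had a called difference (2.29%), where 4.39% of all tested transcripts had one. The values at 0 mGy/h chose these falls and rises and also enter the difference.

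Of the 5 named transcripts whose day change was higher at 100 mGy/h, 2 had a larger rise at 100 mGy/h, 2 had a fall that was called at 0 mGy/h and not at 100 mGy/h, and 1 moved in opposite directions. XM_032943281.1 had 27.5, 29.3, 2.80 and 23.9 CPM on day 8 at 100 mGy/h, against 0.268, 0.34, 0.437 and 0.451 CPM on day 4. In the unirradiated libraries it had 0.156, 0.747, 0.293 and 0.38 CPM on day 8, against 0.39, 0.644, 0.249 and 0.387 CPM on day 4. The day change was called at 100 mGy/h and not at 0 mGy/h (edgeR adjusted p = 5.98e-06 and 0.931), and the difference in log2 fold change was 5.86 ± 1.07 (edgeR adjusted p = 0.0139). XM_032932442.1 (LOC116925712) had 126, 183, 47.2 and 94.6 CPM on day 8 at 100 mGy/h, against 2.75, 3.67, 2.25 and 3.35 CPM on day 4, and 4.67, 21.8, 16.9 and 5.16 CPM on day 8 at 0 mGy/h, against 2.47, 2.77, 5.23 and 2.77 CPM on day 4. It rose at both dose rates, by 5.23 ± 0.57 and 1.87 ± 0.53 on the log2 scale, and the difference was 3.36 ± 0.74 (edgeR adjusted p = 0.0256). That call was lost without day 4 replicate 3 of either dose rate (edgeR adjusted p = 0.0560 without the one at 100 mGy/h and 0.0701 without the one at 0 mGy/h).

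The other 3 fell at 0 mGy/h. XM_032926663.1 (LOC116920535) had 84.8, 52.7, 115 and 57.6 CPM on day 8 at 100 mGy/h, against 13.1, 79.1, 67.2 and 79.0 CPM on day 4. At 0 mGy/h it had 2.18, 10.6, 10.8 and 22.4 CPM on day 8, against 111, 88.7, 136 and 55.3 CPM on day 4. The irradiated days overlapped and the unirradiated days did not, with a difference of 3.47 ± 0.84 (edgeR adjusted p = 0.0361). XM_032920600.1 (LOC116915453) had 3.79, 2.84, 3.78 and 19.6 CPM on day 8 at 100 mGy/h, against 9.57, 24.5, 3.43 and 18.7 CPM on day 4, and 0.933, 0.083, 0 and 0 CPM on day 8 at 0 mGy/h, against 14.8, 18.1, 26.4 and 11.7 CPM on day 4 (difference 5.19 ± 1.28, edgeR adjusted p = 0.0384). XM_032932821.1 (LOC116926043, a symbol shared with another record) rose at 100 mGy/h, with 5.19, 10.8, 5.6 and 9.91 CPM on day 8 at 100 mGy/h, against 0.87, 5.17, 2.75 and 2.77 CPM on day 4. Without irradiation it had 0.933, 0.332, 0.439 and 1.44 CPM on day 8, against 4.94, 4.57, 8.72 and 2.77 CPM on day 4. The difference was 4.16 ± 0.74 (edgeR adjusted p = 0.0124). In a fit of all 56 libraries this last difference stayed called, and those of the other 4 did not, with edgeR adjusted p = 0.140 for XM_032943281.1, 0.0758 for XM_032932442.1, 0.110 for XM_032926663.1 and 0.0513 for XM_032920600.1. With replicate number as a block the call of XM_032920600.1 was lost as well (edgeR adjusted p = 0.0627). With 1 of the 16 libraries left out, the call of XM_032920600.1 was kept without any of day 8 replicates 1, 2 and 3 at 100 mGy/h, day 4 replicate 2 at 100 mGy/h and day 8 replicate 1 at 0 mGy/h, and lost without each of the other 11. The call of XM_032926663.1 was lost without each of 8 libraries, which were day 8 replicate 1 and day 4 replicates 2, 3 and 4 at 100 mGy/h, and day 8 replicate 2 and day 4 replicates 1, 2 and 3 at 0 mGy/h (edgeR adjusted p = 0.0532 to 0.0840).

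The 5 named transcripts whose day change was lower at 100 mGy/h had day 8 levels below the unirradiated libraries, as the rule that chose them required. XM_032934257.1 (LOC116927224) had 4.70, 5.51, 4.77 and 4.28 CPM on day 8 at 100 mGy/h, against 26.8, 29.1, 28.7 and 24.2 CPM on day 4. The unirradiated libraries had 10.7, 13.8, 10.1 and 15.3 CPM on day 8, against 18.2, 17.8, 22.3 and 19.7 CPM on day 4. It fell at both dose rates, and on day 4 its irradiated libraries were above the unirradiated ones. The difference of -1.85 ± 0.18 in log2 fold change had an edgeR adjusted p of 0.000956 and was called under each alternative tried. XM_032941588.1 had 79.2, 137, 91.2 and 156 CPM on day 8 at 100 mGy/h, against 251, 353, 277 and 305 CPM on day 4, and 229, 424, 267 and 243 CPM on day 8 at 0 mGy/h, against 231, 231, 278 and 294 CPM on day 4 (difference -1.53 ± 0.32, edgeR adjusted p = 0.0215). XM_032925901.1 had 181, 149, 239 and 118 CPM on day 8 at 100 mGy/h, against 382, 342, 330 and 307 CPM on day 4, and 426 ± 85.6 CPM on day 8 and 363 ± 23.0 CPM on day 4 at 0 mGy/h (SD, n = 4 each). Both fell at 100 mGy/h and were not called at 0 mGy/h.

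XM_032923442.1 (LOC116917843) had 6.02, 3.53, 6.20 and 2.30 CPM on day 8 at 100 mGy/h, against 17.8, 11.9, 17.8 and 6.77 CPM on day 4, and 14.3 ± 3.35 CPM on day 8 and 12.1 ± 3.06 CPM on day 4 at 0 mGy/h (SD, n = 4 each). Its difference of -1.82 ± 0.48 (edgeR adjusted p = 0.0468) was lost in the fit of all 56 libraries (edgeR adjusted p = 0.108), with DESeq2 size factors (0.0522) and with no filter on low counts (0.0577). With 1 library left out, that call was kept without day 8 replicates 1 or 3 or day 4 replicate 4 at 100 mGy/h and without day 4 replicate 2 at 0 mGy/h, and lost without each of the other 12. XM_032921540.1 (LOC116916305) rose at 0 mGy/h and was not called at 100 mGy/h. It had 80.7, 84.2, 89.4 and 81.6 CPM on day 8 at 100 mGy/h, against 110, 75.7, 134 and 89.5 CPM on day 4, and 173, 157, 111 and 198 CPM on day 8 at 0 mGy/h, against 63.1, 72.5, 101 and 84.6 CPM on day 4. The difference was -1.28 ± 0.27 (edgeR adjusted p = 0.0237), and the edgeR adjusted p was 0.0514 without 0 mGy/h day 4 replicate 1.

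**Figure D4:**
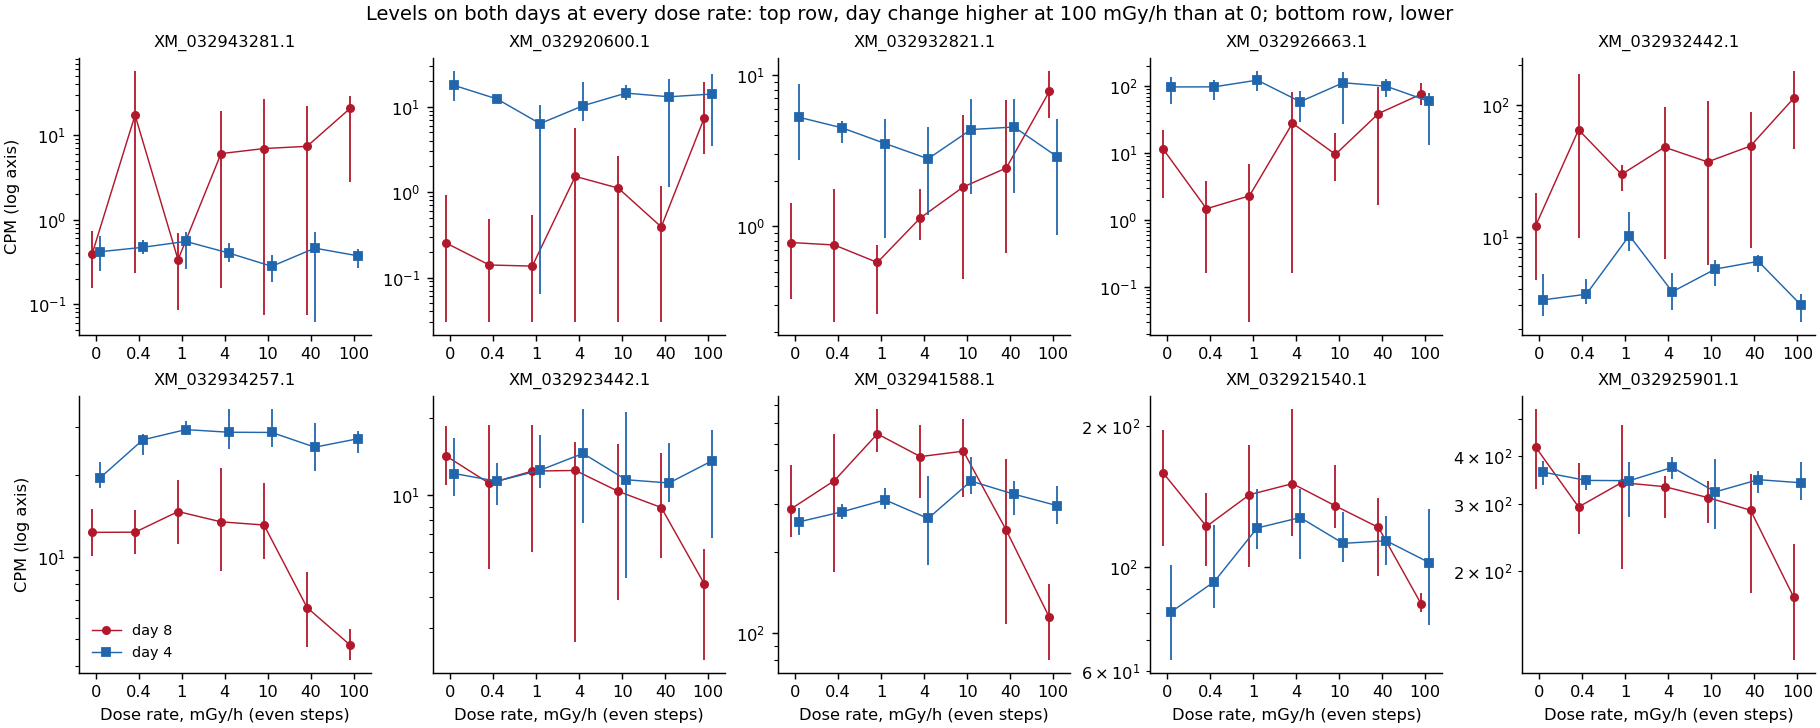
Mean CPM (log axis) on day 8 and day 4 at each of the 7 dose rates for the 10 named transcripts with a called difference between 100 and 0 mGy/h, with lines from the lowest to the highest of 4 libraries and 0 drawn at the bottom of the line. In the bottom row the day 8 mean is lowest at 100 mGy/h in all 5 panels, at 4.77 CPM for XM_032934257.1, against 12.3 CPM at 0 mGy/h.

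The levels of these 10 transcripts were also read at the intermediate dose rates. With all 56 libraries scaled together, XM_032934257.1 had day 8 means of 12.3 ± 2.40, 12.4 ± 2.00, 14.7 ± 3.57, 13.5 ± 5.48, 13.1 ± 3.92, 6.55 ± 1.83 and 4.77 ± 0.524 CPM at 0, 0.4, 1, 4, 10, 40 and 100 mGy/h (SD, n = 4 each). Its day 8 level was even up to 10 mGy/h and lower at 40 and 100 mGy/h. XM_032941588.1 had 289 ± 88.9, 366 ± 155, 545 ± 94.9, 449 ± 131, 471 ± 128, 240 ± 141 and 115 ± 35.3 CPM in the same order, so its highest day 8 mean was at 1 mGy/h. XM_032932821.1 had 0.78 ± 0.503, 0.752 ± 0.692, 0.576 ± 0.219, 1.14 ± 0.439, 1.82 ± 2.41, 2.43 ± 2.95 and 7.78 ± 2.82 CPM in that order, and at 10 and 40 mGy/h its SD exceeded its mean. XM_032943281.1 had 0.39 ± 0.25, 17.3 ± 27.6, 0.336 ± 0.26, 6.06 ± 8.97, 6.96 ± 13.3, 7.38 ± 10.4 and 20.7 ± 12.2 CPM, and at 0.4, 4, 10 and 40 mGy/h its SD exceeded its mean. XM_032932442.1 had 12.1 ± 8.52, 64.7 ± 74.3, 29.7 ± 5.69, 47.7 ± 44.7, 36.9 ± 47.0, 48.7 ± 39.1 and 112 ± 57.0 CPM, so its day 8 mean was lowest at 0 mGy/h, and the libraries at 100 mGy/h overlapped with those at 0.4, 4, 10 and 40 mGy/h.

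XM_032926663.1 had day 8 means of 11.4 ± 8.20, 1.48 ± 1.62, 2.32 ± 3.19, 28.1 ± 38.3, 9.63 ± 7.78, 39.2 ± 42.8 and 76.9 ± 28.4 CPM at 0, 0.4, 1, 4, 10, 40 and 100 mGy/h. Its libraries at 4 and 40 mGy/h reached 83.5 and 97.4 CPM, within the range at 100 mGy/h. XM_032920600.1 had 0.253 ± 0.452, 0.14 ± 0.232, 0.136 ± 0.272, 1.53 ± 2.74, 1.11 ± 1.33, 0.391 ± 0.556 and 7.39 ± 7.89 CPM, and among the other dose rates only 4 mGy/h held a library, at 5.63 CPM, that reached the lowest of those at 100 mGy/h, 2.82 CPM. XM_032923442.1 had 14.2 ± 3.30, 11.1 ± 5.93, 12.4 ± 5.22, 12.5 ± 6.54, 10.3 ± 5.64, 8.92 ± 3.96 and 4.48 ± 1.92 CPM, and its libraries at 100 mGy/h overlapped with those of each dose rate other than 0 mGy/h. XM_032921540.1 had 159 ± 35.9, 122 ± 24.2, 143 ± 33.6, 151 ± 46.0, 135 ± 20.4, 122 ± 20.5 and 83.2 ± 3.59 CPM, with no library at 100 mGy/h in the range of another dose rate. XM_032925901.1 had 423 ± 84.8, 294 ± 60.5, 341 ± 115, 333 ± 38.8, 311 ± 33.5, 288 ± 82.2 and 170 ± 50.9 CPM, and its libraries at 100 mGy/h overlapped with those at 1 and 40 mGy/h. These overlaps are descriptions, and the transcripts were chosen for no overlap between 100 and 0 mGy/h on day 8.

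In 42 of the 9329 transcripts tested, both day changes were called and ran in opposite directions with a called difference. Of these, 16 rose at 100 and fell at 0 mGy/h, and 26 fell at 100 and rose at 0 mGy/h. Many of these changes were small. The log2 fold changes at 100 and 0 mGy/h were -0.10 and 0.12 for XM_032922408.1, and 0.13 and -0.10 for XM_032931422.1. The following are among the larger ones and were chosen after their values were seen. XM_032938160.1 had 47.4, 57.7, 60.5 and 66.7 CPM on day 8 at 100 mGy/h, against 24.8, 47.1, 37.3 and 43 CPM on day 4, and 24.6, 16.8, 30.6 and 22.7 CPM on day 8 at 0 mGy/h, against 46.6, 38.4, 52.7 and 41.8 CPM on day 4. No libraries overlapped between the days at either dose rate, and the difference was 1.53 in log2 fold change (edgeR adjusted p = 0.0139). XM_032920448.1 behaved alike, with 17.6, 23.0, 19.1 and 20.1 CPM on day 8 at 100 mGy/h, against 9.11, 15.2, 13.1 and 16 CPM on day 4, and 6.92, 7.72, 9.65 and 8.81 CPM on day 8 at 0 mGy/h, against 20.6, 12.7, 18.9 and 14.3 CPM on day 4 (difference 1.58, edgeR adjusted p = 0.0112). The opposite was seen in XM_032937787.1 (LOC116930371), with 203, 179, 178 and 126 CPM on day 8 at 100 mGy/h, against 276, 230, 229 and 213 CPM on day 4, and 356, 271, 260 and 273 CPM on day 8 at 0 mGy/h, against 223, 190, 249 and 221 CPM on day 4 (difference -0.86, edgeR adjusted p = 0.0319). XM_032923044.1 had the largest difference of this kind, -1.03 (edgeR adjusted p = 0.0101), with 194, 186, 203 and 152 CPM on day 8 at 100 mGy/h, against 333, 306, 289 and 291 CPM on day 4, and 408, 399, 276 and 323 CPM on day 8 at 0 mGy/h, against 279, 267, 306 and 293 CPM on day 4.

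The day change at 100 mGy/h was then set against that of each other dose rate in 1 edgeR fit of 56 libraries and 9561 transcripts. The number of called differences was 259 against 0 mGy/h (2.71%), 640 against 0.4 mGy/h (6.69%), 1034 against 1 mGy/h (10.8%), 72 against 4 mGy/h (0.753%), 110 against 10 mGy/h (1.15%) and 13 against 40 mGy/h (0.136%). These 6 comparisons share the libraries at 100 mGy/h, and the difference between any 2 of the counts was not tested. Against 40 mGy/h, 1220 transcripts had an unadjusted p under 0.05, and DESeq2 called 55. The number of transcripts called between the days was 5629 at 100 mGy/h (58.9%), and between 5024 (52.5%) and 5552 (58.1%) at the other dose rates. Rises of at least 2-fold numbered 1019 at 100 mGy/h and 647 to 907 at the other dose rates, and falls numbered 361 and 344 to 537.

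Several of these counts moved with single libraries at 100 mGy/h. Against 0 mGy/h the count was 153 without day 8 replicate 4 and 159 without day 4 replicate 3. Against 4 mGy/h it was 113 without day 8 replicate 1 and 44 without day 8 replicate 4. Against 10 mGy/h it was 67 and 38 without day 8 replicates 3 and 4, and 63, 70, 60 and 68 without day 4 replicates 1 to 4. Against 40 mGy/h it was 21, 6 and 5 without day 8 replicates 2, 3 and 4, and 0, 5, 2 and 2 without day 4 replicates 1 to 4. Against 0.4 and 1 mGy/h no left-out library moved the count by more than 1.5 times.

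**Figure D5:**
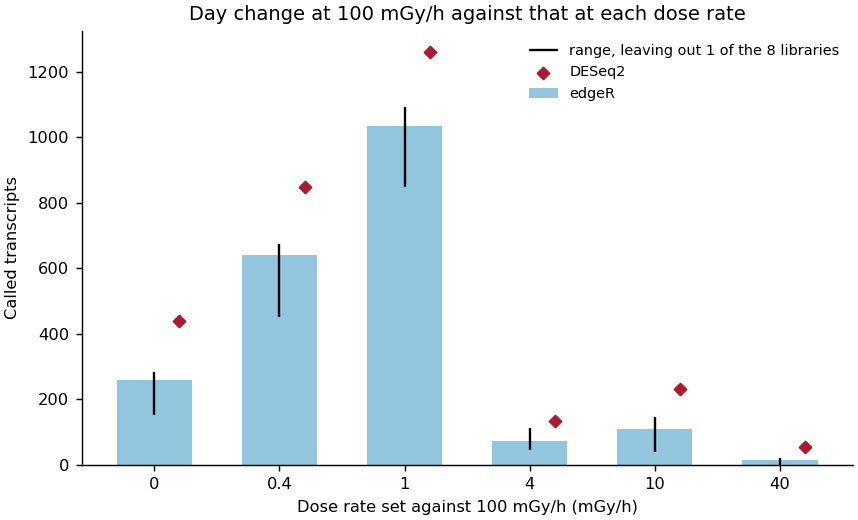
Number of transcripts whose day change at 100 mGy/h differed from that at the dose rate on the horizontal axis, with edgeR bars (13 to 1034), the range over leaving out each of the 8 libraries at 100 mGy/h as lines, and DESeq2 counts as diamonds. The tallest bars stand at 0.4 and 1 mGy/h, with 640 and 1034.

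Rising genes often lay side by side in the RefSeq gene order of assembly ASM2063170v1.1, used here for order alone. Of 639 symbol-matched genes with a rise of at least 2-fold at 100 mGy/h, 179 (28%) stood in runs of at least 2 neighbouring genes that all rose, in 82 runs with a longest run of 4. Where the next protein-coding gene was tested, it also rose in 97 of 295 cases (32.9%), whereas a rising gene followed in 328 of 3168 cases over all tested genes (10.4%). Of 225 genes that fell, 39 (17.3%) stood in 18 runs, and the next gene also fell in 21 of 119 cases (17.6%), against 121 of 3168 (3.82%). Neighbouring copies of 1 gene can share reads, and how such reads were counted is not given in the sources used here, so these shares describe records and not separate loci.

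One run of 4 rising genes was LOC116932552, LOC116932553, LOC116932555 and LOC116932617. Its records XM_032940317.1, XM_032940318.1, XM_032940321.1 and XM_032940408.1 averaged 77.1, 34.7, 14.4 and 6.52 CPM on day 8, against 6.54, 1.52, 2.64 and 1.83 CPM on day 4, and the same genes rose at 0 mGy/h by 3.10, 4.14, 2.27 and 2.45 on the log2 scale. A second run of 4 held XM_032943675.1 (LOC116936521), with 2037, 1774, 1921 and 1509 CPM on day 8, against 64.1, 84, 61.2 and 67.1 CPM on day 4 (log2 fold change 4.71 ± 0.21, edgeR adjusted p = 5.32e-09). It also rose at 0 mGy/h, by 3.59, and the difference of 1.12 was called (edgeR adjusted p = 0.0303). Its 3 neighbours rose by 1.59 to 3.16 on the log2 scale at mean day 8 levels under 8 CPM. A run of 3 falling genes held XM_032923476.1 (LOC116917871), XM_032921780.1 (LOC116916526) and XM_032934890.1 (LOC116927846). These averaged 128, 18.6 and 2.20 CPM on day 8, against 409, 118 and 15.1 CPM on day 4. The 3 genes fell at 0 mGy/h too, by 0.81, 1.53 and 1.68 on the log2 scale, and none of the differences was called. These runs were chosen after their values were seen.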

How the data were processed

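Messenger RNA of whole animals was sequenced in 100 bp paired reads from DNA nanoballs, per the labels' protocols. The values are raw read counts deposited by the authors in 1 table per day, each with 23570 RefSeq transcript records and 28 libraries. The submitters' processing notes name HISAT. The genome build, the counter and the handling of shared reads are not given in the sources used here. Columns were matched to libraries by the code in each label.

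The tables were joined by record. In R 4.3.3 with edgeR 4.0.16, records passing filterByExpr were scaled with TMM factors, and 1 quasi-likelihood model (glmQLFit, glmQLFTest) with a mean per group was fitted to the 16 libraries at 100 and 0 mGy/h. Tests were 2-sided with Benjamini-Hochberg adjustment over all records tested, and a record was called at an adjusted p under 0.05. Standard errors are the log2 fold change over the square root of F, and a prior count of 2 was added for log2 CPM. The differences from the other dose rates came from a model of all 56 libraries with 9561 records. Intervals on ratios of counts come from exact 95% counting intervals on the summed count of the lower day. The sum of the higher day was taken as fixed, so the intervals cover only the counting error of the lower one. No 2 replicate libraries at 100 mGy/h agreed within sampling noise (smallest chi-square per degree of freedom 15.3). Separate preparations of the same animals could also exceed that noise, so this does not tell whether replicates came from separate beakers. Each library was taken as 1 sample.

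Transcripts were named by 3 rules. Of those called between the days at 100 mGy/h, averaging 50 counts or more in these 8 libraries and without overlap of the days, the 8 largest rises and falls and the 3 most abundant rises and falls of at least 2-fold were taken. Of those with a called difference from 0 mGy/h, an average of 50 counts or more in the 16 libraries and no overlap of 100 and 0 mGy/h on day 8, the 5 largest in each direction were taken, whether or not the days differed at 100 mGy/h. The 3 on and 3 off transcripts with most counts where on were added with no minimum mean (1 met the off rule). Any other named transcript was chosen after its values were seen. The comparison, its members and all lists were chosen with earlier results of these data known. Alternatives were DESeq2 1.42.0, its size factors in edgeR, library totals, no filter, a filter of 1 CPM in 4 libraries, a replicate block, all 56 or only the 8 irradiated libraries, records summed by symbol, other fold limits and leaving out each library. Symbols were matched with the record version ignored, for 14015 of 23570 records. Protein and promoter sequences were not used here, so the shares of proteins and promoters with a feature were not computed, and no cell type markers could be read without gene names.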

Additional observations from a re-analysis of the deposited data

Results flagged for a closer look

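The number of transcripts whose day change differed between 100 and 0 mGy/h in the edgeR test of the difference was 410. Among the named ones the difference in log2 fold change (100 minus 0 mGy/h) was 5.86 for XM_032943281.1, 5.19 for XM_032920600.1, 4.16 for XM_032932821.1, 3.47 for XM_032926663.1 and 3.36 for XM_032932442.1. It was -1.85 for XM_032934257.1, -1.82 for XM_032923442.1, -1.53 for XM_032941588.1, -1.28 for XM_032921540.1, -1.22 for XM_032925901.1 and -3.39 for XM_032924943.1.

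Single libraries stood far from the other 3 of their group in 8 of 90 sets of 4 values examined by Dixon's test. For independent normal values chance alone gives 1 in 20, or 4.5. CPM of low counts and of neighbouring transcripts need not behave so, and 4.5 is then only a rough guide. The sets were CPM of the named transcripts and, at 100 mGy/h, library totals and rising minus falling list means. All 8 flagged sets were CPM values. On day 8 at 100 mGy/h these were 1416 CPM of XM_032934914.1 and 809 CPM of XM_032934915.1, both in replicate 4, 67.4 CPM of XM_032925195.1 in replicate 1, 19.6 CPM of XM_032920600.1 in replicate 4 and 0.0792 CPM of XM_032924943.1, a single count, in replicate 4. On day 4 at 100 mGy/h it was 5.96 CPM of XM_032942171.1, the lowest of its group. At 0 mGy/h they were 0.933 CPM of XM_032920600.1 on day 8 and 5.23 CPM of XM_032932442.1 on day 4.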

How the results depend on the processing

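The number of transcripts called between the days at 100 mGy/h (5586) ranged from 4925 with the 8 irradiated libraries alone to 6674 with library totals, and from 5097 to 5653 with 1 library left out. The number changed at least 2-fold (1363) was 2557 at a limit of 1.5-fold and 585 at 4-fold, and 1285 to 1447 with 1 library left out. At 0 mGy/h 4534 to 5160 were called with 1 library left out. The number of called differences between 100 and 0 mGy/h (410) was 901 with DESeq2, of which 406 were shared, 259 with all 56 libraries, of which 195 were shared, and 150 to 787 with 1 library left out. In the fit of 56 libraries DESeq2 called 440 against 0 mGy/h, 132 against 4, 231 against 10 and 55 against 40 mGy/h. With 1 library at 100 mGy/h left out, edgeR called 153 to 284 against 0 mGy/h, 452 to 675 against 0.4, 848 to 1093 against 1, 44 to 113 against 4, 38 to 147 against 10 and 0 to 21 against 40 mGy/h. The count of transcripts on in 1 day and off in the other (15) was 0 with no count allowed where off and 11 with at least 20 counts where on. It was 15 to 27 with 1 library left out, where it could only stay or rise. The causes were not tested.

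With replicate number as a block, 5638 transcripts were called at 100 mGy/h, 1397 at least 2-fold, and 313 for the difference from 0 mGy/h. Residuals of day 8 and day 4 libraries at 100 mGy/h with the same number correlated between -0.09 and 0.49, and 1 of the 4 day 8 libraries correlated best with its own number, so the numbers were not taken as pairs. For the named transcripts, none of 812 values under the alternatives changed direction. The rules had chosen these transcripts for large or abundant changes without overlap of libraries, so this was in part fixed in advance. The call was lost in 10 of the 812 values among settings other than leave-one-out and in 46 with 1 library left out. The latter were in XM_032923442.1, XM_032936324.1, XM_032920600.1, XM_032926663.1, XM_032932442.1 and XM_032921540.1.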
